A study of Homo sapiens with 9 samples.

Results

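This comparison set 4 libraries from plasmids in which the start codons of huntingtin were mutated (RAN plasmids) against 4 from plasmids in which they were intact (WT plasmids). The members were all 8 libraries, of 9 in the series, whose plasmid label starts with RAN or WT, and the remaining library, AUG-NL, was left out. The RAN plasmids were RANQ123 and RANA123, with UGA in place of the AUG at position 1 of the HTT coding sequence and AUC in place of the AUG at position 8. The WT plasmids were WTQ140 and WTA140, with the normal HTT sequence ahead of the CAG repeats. Q and A name the reading frame, relative to the repeat, in which the reporter nanoluciferase was placed. Each plasmid was transfected with FuGENE HD into HEK293, a human embryonic kidney line, and into HEK293T, its derivative that carries the SV40 large T antigen. All 8 libraries therefore shared the transfection reagent, the reporter and a CAG repeat, and were made from total RNA.

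The number in the plasmid name, taken here as the number of CAG units, was 123 in every RAN plasmid and 140 in every WT plasmid. The repeat number thus differed with the state of the start codons, and their effects cannot be told apart in any comparison given here. Each plasmid and line was represented by 1 library, without replicates, so the 4 matched pairs (Q in HEK293, A in HEK293, Q in HEK293T and A in HEK293T) were the only repeats of the contrast. The p-values therefore reflect how far libraries of different plasmids and lines varied, and no culture was repeated. The HEK293 libraries were batch 1 and the HEK293T libraries batch 2 in the labels, so both libraries of a pair came from the same batch, while line and batch cannot be told apart. The deposited files give positions on a reporter sequence and no genes, so the cell lines were not checked against markers.

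HTT encodes huntingtin, and expansion of the CAG repeat in its first exon causes Huntington's disease. Translation normally starts at an AUG a short way upstream of the repeat and reads the repeat as glutamine. In repeat-associated non-AUG (RAN) translation, ribosomes start at or near an expanded repeat without an AUG and can read it in other frames, which for CAG include alanine (GCA) and serine (AGC). Plasmids without the AUG codons, with a luciferase in a chosen frame, are used to measure such initiation.

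The start codons compared here lie at the head of a short stretch of HTT exon 1. In GRCh38 this exon spans chr4:3074681-3075088 on the plus strand, and the stretch from the start codon to the base before the CAG repeat is chr4:3074826-3074876. It is coding, 51 bases or 17 codons long, and holds 2 ATG triplets, which are codons 1 and 8. In the first line the capitals mark these start codons, the triplets that the RAN plasmids changed. In the second line the capitals mark bases that the results turn on.

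HTT coding bases, start codons: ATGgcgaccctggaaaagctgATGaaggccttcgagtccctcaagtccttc

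HTT coding bases, ends: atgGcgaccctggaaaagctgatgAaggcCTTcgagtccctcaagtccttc

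The reference genome carries 19 CAG units after this stretch, at chr4:3074877-3074933. The deposited values are counts of ends at bases 2 to 6566 of a reference whose sequence was not used here. The sources used here do not state which end of a read was counted. No end fell on bases 2980 to 3400 in any of the 8 libraries, a stretch of 421 bases, against 420 for 140 CAG units and 369 for 123. If the repeat began at base 2980, codon 1 would lie at bases 2929 to 2931 and codon 8 at bases 2950 to 2952. The capitals of the second line would then be bases 2932 and 2953, the first base after each start codon, and bases 2958 to 2960, which include the base with most ends. This placement was inferred from the empty stretch and was not tested against the plasmids. A repeat of 420 bases is shorter than the 421 empty bases, so it could also begin 1 base later. Each codon would then lie 1 base later, and base 2932 would be the last base of codon 1.

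The libraries held 387 to 8492 ends, and base 2960 took most of them. In HEK293 RANQ123 had 4087 ends against 8492 for WTQ140, and RANA123 had 5328 against 3553 for WTA140. The HEK293T pairs had 717 against 2308 ends and 389 against 387. RAN totals were lower than WT totals in both Q pairs and higher in both A pairs, so totals had no common direction. A total reflects sequencing depth as well as RNA, and fewer transfected cells and less reporter RNA per cell cannot be told apart in such libraries. Shares were taken of all ends and of the ends away from base 2960, which numbered 249, 596, 324 and 204 in HEK293 and 29, 108, 19 and 16 in HEK293T, in the same plasmid order. A count of 0 allowed a share of up to 3 ends, or 0.0353% of all ends in the deepest library and 0.775% in the shallowest. Intervals and this limit cover counting error only, because sequenced ends need not be independent molecules.

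At the dominant base, RAN and WT shares differed by less than the spread between libraries. Base 2960 would lie in codon 11, at coding base 32, and 20 bases before the empty stretch. In HEK293 it held 93.9% of ends in RANQ123, 93.0% in WTQ140, 93.9% in RANA123 and 94.3% in WTA140. In HEK293T it held 96.0% in RANQ123, 95.3% in WTQ140, 95.1% in RANA123 and 95.9% in WTA140. The groups overlapped, and the lowest and the highest library were both Q plasmids. RAN exceeded WT by 0.926 percentage points in the Q pair and the A pair differed by -0.339 points in HEK293, and in HEK293T the differences were 0.635 and -0.750 points. The mean difference was 0.118 points (SD of the differences 0.792, n = 4 pairs), and the two-sided exact sign-flip permutation test gave p = 0.875. With 4 pairs this exact test cannot go below p = 0.125 and could not pass 0.05 for any region.

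**Figure D1:**
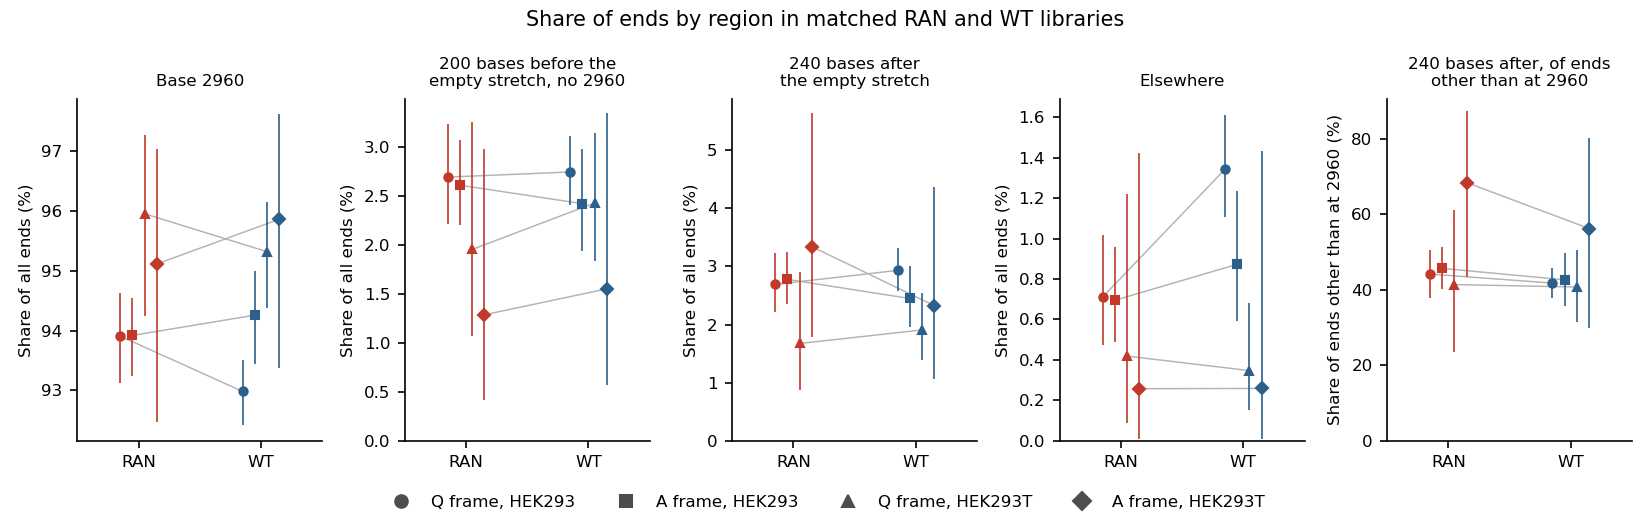
Shares of ends by region in each library, with RAN and WT of a matched pair joined by a grey line, exact 95% binomial intervals as bars, and the vertical axis in percent of the denominator named on each panel (the axis of the panel for base 2960 does not start at 0). RAN and WT points overlap in every panel, and the intervals are widest for the HEK293T libraries.

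Away from base 2960, ends collected in 2 regions on either side of the empty stretch. The 200 bases before it, bases 2780 to 2979, correspond under the placement above to the upstream sequence and the 17 codons ahead of the repeat. In HEK293 they held 2.69% of all ends in RANQ123, 2.74% in WTQ140, 2.61% in RANA123 and 2.42% in WTA140, base 2960 left out. In HEK293T they held 1.95% in RANQ123, 2.43% in WTQ140, 1.29% in RANA123 and 1.55% in WTA140. RAN was lower in 3 of 4 pairs, by a mean of -0.151 points (exact sign-flip p = 0.375), and the groups overlapped. As a share of the ends away from base 2960, the region held 40.4% ± 9.68 in RAN and 42.7% ± 6.43 in WT (SD, n = 4 each), and the mean difference was -2.23 points (exact p = 0.75). The HEK293 pairs alone differed by 5.08 and 0.744 points and the HEK293T pairs alone by -3.58 and -11.2 points, so the direction was not shared between the lines.

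The 240 bases after the empty stretch, bases 3401 to 3640, held 2.62% ± 0.694 of all ends in RAN and 2.40% ± 0.422 in WT (SD, n = 4 each). RAN was lower in both Q pairs, by -0.241 points in HEK293 and -0.233 in HEK293T, and higher in both A pairs, by 0.329 and 1.02 points (exact sign-flip p = 0.625). Of the ends away from base 2960, the region held 44.2% in RANQ123 against 41.8% in WTQ140 and 45.7% in RANA123 against 42.6% in WTA140 in HEK293. In HEK293T the shares were 41.4% in RANQ123 against 40.7% in WTQ140 and 68.4% in RANA123 against 56.3% in WTA140. RAN was thus higher in 4 of 4 pairs, by a mean of 4.56 points, though the groups overlapped across pairs. Its exact sign-flip p of 0.125 was the limit for 4 pairs and became 0.656 after Benjamini-Hochberg adjustment over the 7 region tests. The A pair of HEK293T, with a difference of 12.2 points, rested on 13 of 19 ends in RANA123 and 9 of 16 in WTA140, and the exact 95% intervals of these shares were 43.4 to 87.4% and 29.9 to 80.2%. Without that pair the mean difference was 2.02 points. With all bases after the empty stretch in place of these 240, the mean difference over the pairs was 2.00 points (exact sign-flip p = 0.625). RAN was then not higher in every pair.

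All other bases together held 0.520% ± 0.220 of ends in RAN and 0.705% ± 0.504 in WT (SD, n = 4 each), and the exact p was 0.375. The widest gap was in the Q pair of HEK293, with 0.710% in RANQ123 against 1.34% in WTQ140. Before both regions, RANQ123 held 3 ends there and WTQ140 38, while RANA123 held 5 and WTA140 6. In HEK293T, the part before both regions held 1 to 3 ends in each library. Downstream of both regions, in bases 3641 to 6566, RAN was lower in the 3 pairs that had ends there, with 0.636% against 0.895% and 0.601% against 0.704% in HEK293 and 0 against 0.260% in the Q pair of HEK293T (exact p = 0.25). No end fell there in the A pair of HEK293T.

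Single bases were then compared over the whole sequence. Of the 6565 bases, 382 carried at least 1 end, 197 of them in RAN, 300 in WT and 115 in both. The 29 bases with at least 10 ends over the 8 libraries were tested with edgeR, with the pair as a block and the library totals as library sizes. At a Benjamini-Hochberg adjusted p under 0.05, 3 of the 29 were called (10.3%), of which 2 were higher in RAN and 1 lower. These were base 3548 (log2 fold change 5.19, adjusted p = 0.000109), base 2932 (4.07, adjusted p = 0.0205) and base 3558 (-5.22, adjusted p = 0.0205). Each held nearly all its ends in 1 group and passed the filter through that group alone, so that a tested base of this kind had to differ, and its p-values are given as a description. The fitted fold change of base 3558, which held 0 RAN ends, depends on the prior count of the fit and is no bound. The median log2 fold change over the 29 bases was 0.00513, and 19 of them lay within 1 log2 unit of 0. These p-values used 87 degrees of freedom, from 1 spread estimated over all tested bases. With only the 3 residual degrees of freedom of the pairs, the edgeR F statistics gave unadjusted p = 0.0159, 0.0484 and 0.0506 in the same order, adjusted p = 0.462, 0.489 and 0.489, and 0 calls. Both sets of p-values come from the same F statistics, which rest on the spread estimated over all tested bases. Only the degrees of freedom differ, so no base was tested on its own residual spread. Bases at an unadjusted p under 0.05 numbered 2 on 3 and 4 on 87 degrees of freedom. DESeq2 with library totals called 3 bases. DESeq2 was run here with each base's own dispersion estimate, without a fitted trend or shrinkage. Its SEs and Wald p-values therefore rest on few libraries per base and differ from those of its default procedure.

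**Figure D2:**
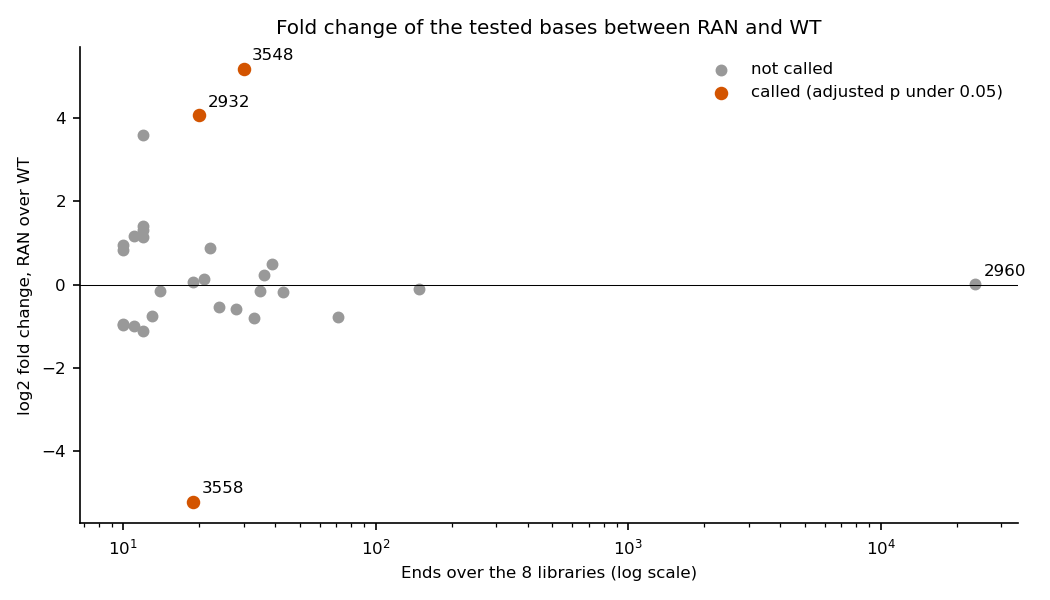
Fitted log2 fold change, RAN over WT (vertical axis), against the total number of ends over the 8 libraries (horizontal axis, log scale) for each of the 29 tested bases, with the called bases marked. Bases 3548 and 2932 stand above and base 3558 below the rest, each with 19 to 30 ends, and base 2960, with most ends, lies near 0.

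Ahead of the repeat, the base called higher in RAN was base 2932, which under the placement is the first base after start codon 1, the codon changed to UGA. In HEK293 it held 9 ends in RANQ123 against 1 in WTQ140, and 10 in RANA123 against 0 in WTA140. In HEK293T it held 0 ends in all 4 libraries. All RAN ends at this base thus came from HEK293, where both RAN libraries lay above both WT libraries, and the groups overlapped at 0 over both lines. As shares, RANQ123 held 0.220% (exact 95% interval 0.101 to 0.418) against 0.0118% in WTQ140 (0.000298 to 0.0656). RANA123 held 0.188% (0.0900 to 0.345) against 0 of 3553 ends in WTA140, where a count of 0 allows up to 0.0844%. In HEK293T it allows up to 0.418% in RANQ123 and 0.771% in RANA123, so shares as large as those of HEK293 were not detectable there at this depth.

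Pooled over libraries, base 2932 held 19 of 10521 RAN ends and 1 of 14740 WT ends, a ratio of 26.6 with a counting interval of 4.23 to 1106. Without WTQ140 in HEK293, which held the only WT end, the WT count was 0 and RAN was at least 3.76-fold higher, taking 3 ends in the other WT libraries together as the floor. The call at base 2932 rested on HEK293. With the HEK293 pairs alone, the line where its ends were seen, the fitted log2 fold change was 4.37, and with the HEK293T pairs alone the base was not tested. It was not called without RANQ123 (edgeR adjusted p = 1), WTQ140 (0.479), RANA123 (0.193) or WTA140 (0.283) in HEK293, where the fitted log2 fold change was 3.69 to 4.79. Without RANQ123 or WTQ140 in HEK293 that pair gives no contrast, and the WT libraries of the other pairs held no end at this base. The fitted fold changes of those 2 fits therefore depend on the prior count and are no bound. DESeq2 with library totals gave a log2 fold change of 3.61 ± 0.959 (SE) and an adjusted p = 0.00241, and with its own size factors an adjusted p = 0.656.

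The bases around the placed start codons held few ends. Bases 2929 and 2930 held 0 in every library, and base 2931, the last base of codon 1, held 2 RAN and 4 WT ends. Base 2933, next to base 2932, held 0 RAN ends and 1 WT end. The excess in RAN at base 2932 was thus not seen at these neighbouring bases, which held too few ends to show where it stopped. At base 2953, the first base after start codon 8, which the RAN plasmids changed to AUC, RANQ123 held 6 ends in HEK293 and 1 in HEK293T, against 1 in WTQ140 in HEK293 and 0 in HEK293T. RANA123 held 0 ends in both lines, and WTA140 held 1 in HEK293 and 0 in HEK293T. Over the groups this was 7 RAN and 2 WT ends, a ratio of 4.904 with a counting interval of 0.934 to 48.4, and the base was below the filter of the edgeR test. All but the Q pair of HEK293 rested on at most 1 end per library, so no difference between the frames can be read at base 2953. Bases 2950, 2951, 2952 and 2954 together held 9 RAN and 9 WT ends.

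**Figure D3:**
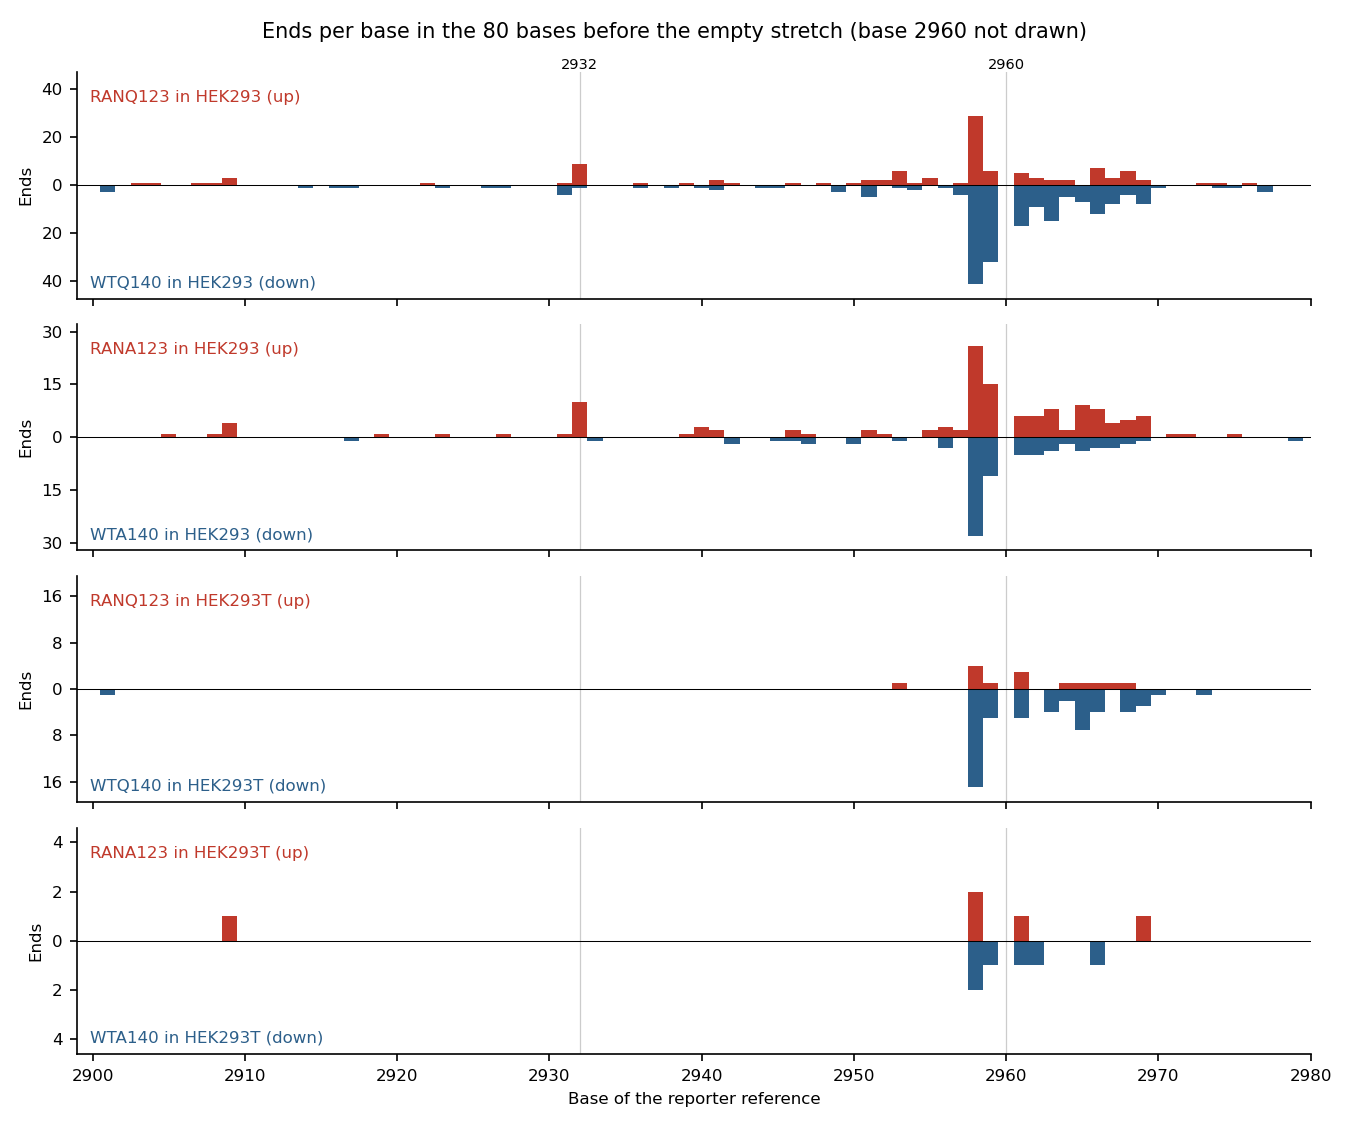
Number of ends (vertical axis, not scaled for depth) at each base shortly before the empty stretch (horizontal axis, base of the reference), as bars with RAN upward and WT downward, 1 panel with its own scale per matched pair, and base 2960 not drawn. At base 2932 RANQ123 and RANA123 in HEK293 have 9 and 10 ends against 1 and 0 in WT, and in all panels ends crowd beside base 2960.

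The placed stretch from codon 1 to 3 bases before the dominant base, bases 2929 to 2957, held 33 ends in RANQ123, 28 in WTQ140, 30 in RANA123 and 13 in WTA140 in the HEK293 line. In HEK293T it held 1 end in RANQ123 and 0 in the other 3 libraries. As shares, the HEK293 pairs were 0.807% against 0.330% and 0.563% against 0.366%, so both RAN libraries of that line lay above both WT libraries. Over all pairs RAN was higher in 3 and tied at 0 in the A pair of HEK293T (exact sign-flip p = 0.25). Base 2932 supplied 9 of the 33 ends of RANQ123 and 10 of the 30 of RANA123. The edges of this stretch were chosen after the counts were seen.

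Upstream of codon 1, a group of ends seen in RAN libraries alone lay in bases 2902 to 2911. The window held 7 ends in RANQ123 and 6 in RANA123 in HEK293 and 1 in RANA123 in HEK293T, and 0 in RANQ123 in HEK293T and in all 4 WT libraries. Base 2909 held 8 of these 14 ends, split in HEK293 as 3 in RANQ123 and 4 in RANA123, plus 1 in HEK293T from RANA123. The window had an edgeR log2 fold change of 5.09 and was not called (adjusted p = 0.178), while DESeq2 with library totals gave an adjusted p = 0.00201. It passed the filter through RAN alone, so its p-values are a description. The window also lay outside the rule for named positions and was singled out after its values were seen. Other windows upstream of codon 1 held WT ends alone. Bases 2792 to 2801 and bases 2842 to 2851 each held 7 WT and 0 RAN ends, most of them from WTQ140 in HEK293. Bases 2780 to 2928 together held 9 ends in RANQ123, 41 in WTQ140, 11 in RANA123 and 4 in WTA140 in HEK293. RAN shares there were higher in 2 of 4 pairs (exact sign-flip p = 0.875).

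On the base just before the dominant base, the share of ends was lower in RAN in every pair, and the difference was not called. Base 2959 held 0.147% of ends in RANQ123 against 0.377% in WTQ140 and 0.282% in RANA123 against 0.310% in WTA140 in HEK293. In HEK293T it held 1 end in RANQ123 and 5 in WTQ140, 0 in RANA123 and 1 in WTA140. RAN was lower in each pair, although RANA123 in HEK293 exceeded the WT libraries of HEK293T and the groups overlapped. The edgeR log2 fold change was -0.77 and was not called (adjusted p = 0.773), and the exact sign-flip test of the shares gave p = 0.125, its smallest. The gaps were -0.230 points in the Q pair of HEK293, on 6 against 32 ends, and -0.258 points in the A pair of HEK293T, on 0 against 1.

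Base 2958, the most used base after 2960, showed no common direction. In HEK293 it held 0.710% in RANQ123 against 0.483% in WTQ140, and 0.488% in RANA123 against 0.788% in WTA140. In HEK293T it held 4 and 17 ends in the Q pair and 2 and 2 in the A pair, and RAN was lower there by shares of 0.558% against 0.737% and 0.514% against 0.517%. RAN was thus higher in 1 of 4 pairs and the groups overlapped (edgeR log2 fold change -0.11, adjusted p = 0.931). Bases 2958 and 2959 together held 0.709% ± 0.145 in RAN and 0.921% ± 0.138 in WT (SD, n = 4 each), lower in RAN in 4 of 4 pairs (exact p = 0.125). In the Q pair of HEK293 this sum was 0.856% against 0.860%, so RAN had more ends at base 2958 and fewer at base 2959 with nearly the same total.

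On the other side of base 2960, bases 2961 to 2969 held 0.844% ± 0.273 of ends in RAN and 0.962% ± 0.219 in WT (SD, n = 4 each). RAN was lower in 3 of 4 pairs and higher in the A pair of HEK293, with 54 ends in RANA123 and 29 in WTA140 (exact p = 0.375). The edgeR log2 fold changes of its 9 bases ran from -0.79 at base 2963 to 0.89 at base 2968, with none called. Bases 2970 to 2979, the last before the empty stretch, held 0 to 6 ends per library.

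After the empty stretch, the base called higher in RAN was base 3548. In HEK293 it held 19 ends in RANQ123 against 1 in WTQ140, and 5 in RANA123 against 0 in WTA140. In HEK293T it held 4 in RANQ123 against 0 in WTQ140, and 1 in RANA123 against 0 in WTA140. All 4 RAN libraries had ends at this base and lay above all 4 WT libraries, so the observed shares of the groups did not overlap. As shares, RANQ123 held 0.465% in HEK293 (exact 95% interval 0.280 to 0.725) and 0.558% in HEK293T (0.152 to 1.42), and RANA123 held 0.0938% (0.0305 to 0.219) and 0.257% (0.00651 to 1.42). WTQ140 held 0.0118% in HEK293. A count of 0 allows up to 0.0844% in WTA140 in HEK293, 0.130% in WTQ140 in HEK293T and 0.775% in WTA140 in HEK293T. The limit of 0.775% lies above every RAN share, so a difference in the A pair of HEK293T was not detectable at that depth. The limit of 0.130% lies above the share of RANA123 in HEK293 but below that of the matched RANQ123. The values of RANA123 in HEK293T and of WTQ140 in HEK293 rest on a single end each.

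Pooled over libraries, base 3548 held 29 of 10521 RAN ends and 1 of 14740 WT ends, a ratio of 40.6 with a counting interval of 6.74 to 1659. Without RANQ123 in HEK293 the ratio was 22.9, without RANA123 in HEK293 it was 68.1, and without WTQ140 in HEK293 RAN was at least 5.74-fold higher against the floor of 3 ends. The share was higher in RAN in 4 of 4 pairs (exact sign-flip p = 0.125, its smallest). With the HEK293 pairs alone the fitted log2 fold change was 5.08, and with the HEK293T pairs alone the base was not tested. The call was lost without RANQ123 in HEK293 (edgeR adjusted p = 0.727) and without WTQ140 in HEK293 (0.0588), where the fitted log2 fold changes were 6.06 and 5.72. Without either library that pair gives no contrast, and the WT libraries of the other pairs held no end at this base. These fold changes therefore depend on the prior count and are no bound. DESeq2 with library totals gave 4.79 ± 0.940 (SE) on the log2 scale and an adjusted p = 1.01e-05.

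**Figure D4:**
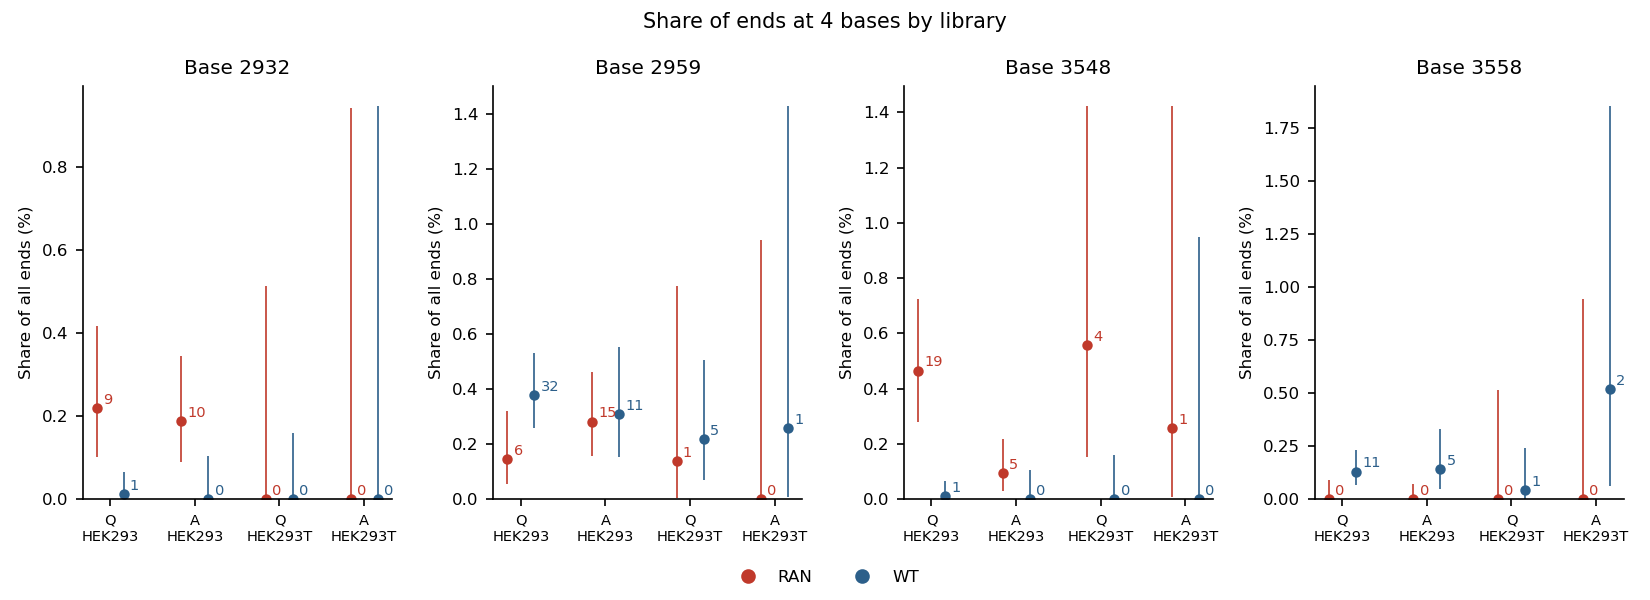
Share of all ends (vertical axis, percent, with exact 95% binomial intervals) and number of ends (printed at each point) in the 8 libraries at bases 2932, 2959, 3548 and 3558. Base 3548 has ends in all 4 RAN libraries and 1 end in WT, base 3558 has ends in all 4 WT libraries and none in RAN, and base 2932 has RAN ends in HEK293 only.

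At 10 bases further on the pattern was opposite. Base 3558 held 11 ends in WTQ140 and 5 in WTA140 in HEK293, 1 in WTQ140 and 2 in WTA140 in HEK293T, and 0 in all 4 RAN libraries. The groups did not overlap, and the WT shares were 0.130% and 0.141% in HEK293 and 0.0433% and 0.517% in HEK293T. A count of 0 allows up to 0.0734% in RANQ123 and 0.0563% in RANA123 in HEK293, below the WT shares of that line. In HEK293T it allows up to 0.418% in RANQ123 and 0.771% in RANA123, above the shares of the matched WT libraries, so a difference was not detectable at that depth. Over the groups, RAN held 0 of 10521 ends and WT 19 of 14740, and RAN was at least 4.52-fold lower, taking 3 ends in all RAN libraries together as the floor. This bound was 2.76-fold without RANQ123 in HEK293 and 2.23-fold without RANA123 in HEK293.

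The call at base 3558 depended on single HEK293 libraries and on the scaling. It was lost without RANQ123 (edgeR adjusted p = 0.727), RANA123 (0.193) or WTA140 (0.502) in HEK293, where the fitted log2 fold changes were -5.24, -5.10 and -5.22. With no RAN end at this base in any library, these values also depend on the prior count and are no bound. Without WTQ140 in HEK293 the base was not tested. DESeq2 gave an adjusted p = 0.293 with library totals (log2 fold change -3.80 ± 1.88 SE) and called the base with its own size factors (-3.94, adjusted p = 0.00428).

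Base 3558 was part of a longer stretch without RAN ends. No RAN library had an end on the 13 bases from 3549 to 3561, which follow directly on base 3548. WTQ140 had 23 ends there and WTA140 10 in HEK293, and WTQ140 had 3 and WTA140 4 in HEK293T. These 40 ends were 10.3% of the 389 WT ends of the region after the empty stretch, against 0 of 283 in RAN, where a count of 0 allows up to 1.06%. Base 3551 held 9 of the 40, in 3 of the 4 WT libraries, so the WT ends there were spread over several bases. The edges were set by the RAN counts themselves, so this is a description. Of the stretches without WT ends within bases 3401 to 3640, the one with most RAN ends was bases 3615 to 3618, with 7. Runs without ends were also seen between the frames. Bases 3532 to 3541 held 0 ends in all A libraries. In the same bases RANQ123 held 16 ends and WTQ140 33 in HEK293, and 0 and 6 in HEK293T.

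Together, bases 3548 to 3561 did not differ in one direction. They held 0.465% in RANQ123 against 0.283% in WTQ140 and 0.0938% in RANA123 against 0.281% in WTA140 in HEK293. In HEK293T the shares were 0.558% against 0.130% in the Q pair and 0.257% against 1.03% in the A pair. RAN was higher in both Q pairs and lower in both A pairs (exact sign-flip p = 0.75). RAN ends of these 14 bases all lay on the first, and all but 1 of the WT ends on the others.

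**Figure D5:**
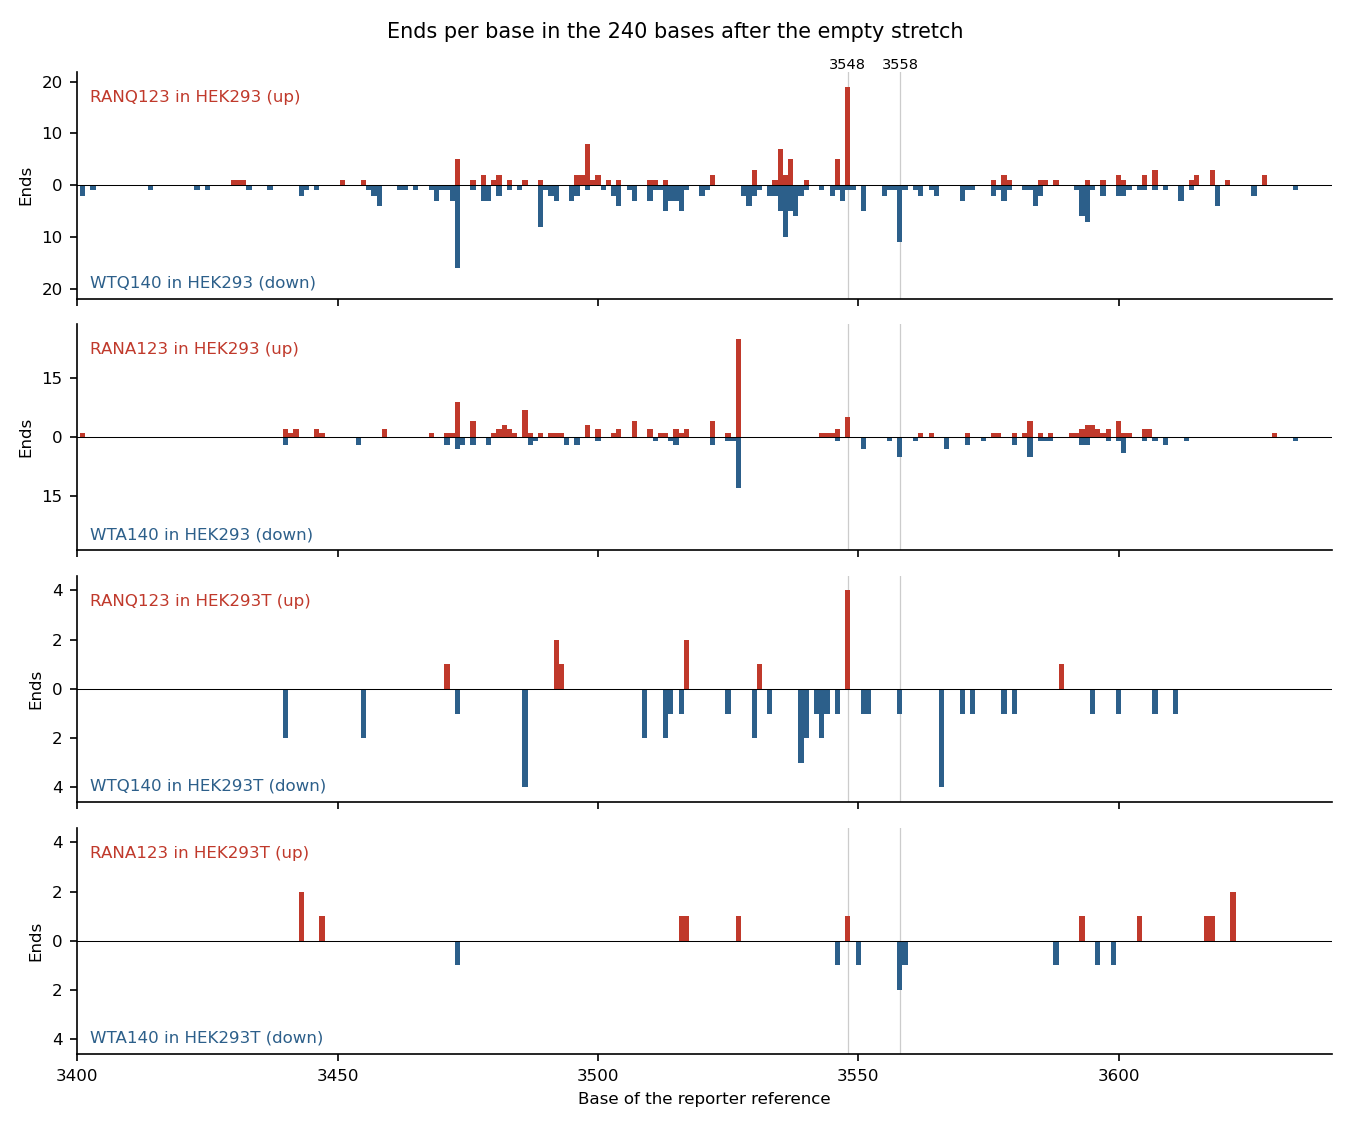
Number of ends (vertical axis, not scaled for depth) at each of the 240 bases after the empty stretch (horizontal axis, base of the reference), as bars with RAN upward and WT downward, and 1 panel with its own scale per matched pair. RAN has ends at base 3548 and none on the 13 bases that follow, where every WT library has some.

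Windows of 10 bases gave 1 call among 27 tested (3.7%), with 3 at an unadjusted p under 0.05. This was bases 3552 to 3561, with 17 ends in WTQ140 and 7 in WTA140 in HEK293, 2 and 3 in HEK293T, and 0 in all 4 RAN libraries (edgeR log2 fold change -5.77, no bound because RAN was at 0, adjusted p = 0.0489). On the 3 residual degrees of freedom its p was 0.0484 and adjusted 0.936, and the call was lost with the HEK293 pairs alone and without any 1 of the 8 libraries. This window passed the filter through WT alone, so that it had to differ, and its p-values are given as a description. The window of bases 3542 to 3551, which holds base 3548, contained 24 RANQ123 and 14 WTQ140 ends and 10 RANA123 and 4 WTA140 ends in HEK293, and 4 and 6, and 1 and 2 ends in HEK293T. It was not called, and bases with RAN ends and bases with WT ends lay side by side in it. The window of bases 2932 to 2941 held 13 ends in RANQ123, 6 in WTQ140, 16 in RANA123 and 1 in WTA140 in the HEK293 line and 0 in HEK293T (log2 fold change 2.46, adjusted p = 0.291).

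Other bases after the empty stretch were used in both groups or in 1 frame. Base 3527 held ends in A libraries alone, with 25 in RANA123 against 13 in WTA140 in HEK293 and a single end, in RANA123, in HEK293T. RAN was higher there by shares of 0.469% against 0.366% in HEK293, within the counting intervals of 0.304 to 0.692% and 0.195 to 0.625% (edgeR log2 fold change 0.49, adjusted p = 0.773). Base 3473 held 5 ends in RANQ123, 16 in WTQ140, 9 in RANA123 and 3 in WTA140 in the HEK293 line, and 0, 1, 0 and 1 in HEK293T (log2 fold change -0.15, adjusted p = 0.931). Base 3498 held 8 ends in RANQ123 against 1 in WTQ140 and 3 in RANA123 against 0 in WTA140 in HEK293, and 0 in HEK293T. It was not called over both lines (edgeR log2 fold change 3.60, adjusted p = 0.139) and was called with the HEK293 pairs alone on the pooled spread (3.90, adjusted p = 0.0425). With library totals DESeq2 also called it (3.15 ± 0.946 SE, adjusted p = 0.00859). Base 3498 held nearly all its ends in RAN and passed the filter through that group alone, so its p-values are a description.

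Within lines the calls came from HEK293. The HEK293 pairs alone gave 4 called bases of 26 tested, bases 2932, 3498, 3548 and 3558, with edgeR adjusted p = 0.0230, 0.0425, 0.0127 and 0.0282. That fit leaves 1 residual degree of freedom per base, and its p-values rest on the spread pooled over bases. The same F statistics on that 1 degree of freedom gave all 4 an edgeR adjusted p = 0.916. There were then 0 calls and 0 bases at an unadjusted p under 0.05, and these values also rest on the pooled spread. Each of the 4 held nearly all its ends in 1 group and passed the filter through it alone, so these p-values are a description. The HEK293T pairs alone left 3 bases with enough ends to test and gave 0 calls, and 0 at an unadjusted p under 0.05. Of the 29 bases tested over both lines, RAN shares differed the same way in 4 of 4 pairs at 3, higher at base 3548 and lower at bases 2959 and 3558. In both HEK293 pairs, 9 of the 29 bases were higher in RAN and 8 lower.

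The number of bases that carried the rarer ends had no common direction between RAN and WT at equal depth. In HEK293, ends away from base 2960 lay on 103 bases in RANQ123, 236 in WTQ140, 131 in RANA123 and 85 in WTA140. At the off-peak depth of the shallower library of each pair, RAN ends lay on 103 bases against an expected 139 in WT in the Q pair, and 98.7 against 85 in the A pair. In HEK293T these numbers were 18 against 20.1 and 13.9 against 14. RAN was higher in 1 of 4 pairs (exact sign-flip p = 0.625). The bases used in both libraries of a pair numbered 53 in the Q pair of HEK293, which were 51.5% of the RANQ123 bases and 22.5% of the WTQ140 bases. In the A pair of HEK293 38 bases were shared, 29.01% of those of RANA123 and 44.7% of those of WTA140, and in HEK293T 8 and 2 bases were shared.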

How the data were processed

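Each deposited file gives, per the file headers, a base and its number of ends, as raw whole-number counts made by the authors over bases 2 to 6566. Per the submitters' processing notes, cutadapt 4.9, STAR, SAMtools and the build hg38 were used, with no roles stated. The aligned reference, the end counted and the handling of duplicates are not stated there, and each could move ends. Per the labels' protocols, RNA was column-extracted with DNase I digestion and libraries were prepared by a sequencing service.

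Counts were used as deposited, from 8 libraries with totals of 387 to 8492 ends. Groups came from the plasmid labels and pairs from frame and cell line in the labels. Bases with at least 10 ends over the 8 libraries, and windows of 10 bases, were tested with edgeR 4.0.16 in R 4.3.3 (quasi-likelihood test, pair as a block, library totals without further scaling, Benjamini-Hochberg adjustment), after the script was tested on simulated data. DESeq2 1.42.0, TMM scaling, other filters, no block, left-out libraries and lines taken alone were alternatives, the last and the residual degrees of freedom chosen after seeing the data. DESeq2 used Wald tests on the dispersion estimated for each base or window alone, without its default trend and shrinkage. Region shares were compared with two-sided exact sign-flip permutation tests in Python 3.11.15 with scipy 1.17.1, with exact Clopper-Pearson 95% intervals for shares. Named bases were the base with most ends, the 15 next by total ends, called bases and windows, bases with at least 10 ends that differed the same way in 4 of 4 pairs, and bases at and just after the placed start codons. Bases 2909 and 3498, windows 2792 to 2801, 2842 to 2851, 2902 to 2911, 2932 to 2941, 3532 to 3541 and 3542 to 3551, and the stretches of several bases were added after their values were seen. The comparison, regions and rules were chosen with earlier results of these data known, so calls at bases already seen in them are not independent support. HTT sequence and coordinates are from GENCODE 29 on GRCh38.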

Additional observations from a re-analysis of the deposited data

Results flagged for a closer look

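The difference between RAN and WT took opposite signs in the 2 frames at base 2960, where RAN exceeded WT in both Q pairs and fell short in both A pairs (mean Q minus mean A 1.33 percentage points). After the empty stretch the signs were the other way round, with -0.909 points between Q and A as shares of all ends. Base 2969 also differed by frame, by -0.258 points. By cell line, the share of off-peak ends before the empty stretch was higher in RAN in both HEK293 pairs and lower in both HEK293T pairs, with 10.3 points between the lines, and base 2966 differed by 0.194 points in the same way. These 5 differences between frames or lines were not tested.

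Among 44 sets of 4 libraries of 1 group, 5 had a library far from the other 3. The rule flags about 1 in 20 sets of normally distributed values. A set with ends in only 1 library is always flagged, as were the WT sets at bases 3527, 3548 and 2932. The number of flags therefore cannot be compared with that rate. After the empty stretch, RANA123 in HEK293T held 68.4% of off-peak ends, above the other RAN libraries, and WTA140 in HEK293T held 56.3%, above the other WT libraries. At base 3527, WTA140 in HEK293 held 0.366% and the other WT libraries 0. At bases 3548 and 2932, WTQ140 in HEK293 held 0.0118%, a single end each, and the other WT libraries 0.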

How the results depend on the processing

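The difference at base 2960 was -0.1504 points with 2 bases on each side added, and -0.152 to 0.407 with each pair left out. After the empty stretch it was -0.0481 to 0.371 with each pair left out. Neither had a stable sign, and of 29 alternatives over the 5 region results 4 turned the sign. The causes were not tested.

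The count of called bases was 3 with 6 alternatives (TMM, off-peak totals, either DESeq2 scaling, additive terms and no block for the pair), 4 with the HEK293 pairs alone, and 0 to 4 with each library left out. It was 1 with no filter (382 bases tested), and 0 with at least 10 ends in at least 2 libraries (4 tested), with the HEK293T pairs alone (3 tested) and with residual degrees of freedom alone. DESeq2 with library totals called 3 higher and 0 lower bases, against 2 and 1 in edgeR. In either DESeq2 fit only 2 of the 3 calls were also called in the main fit. Both called base 3498, while base 3558 was lost with library totals and base 2932 with own size factors. The count of called windows, 1, was 0 with off-peak totals, no filter, the stricter filter, either line alone, windows 5 bases later, residual degrees of freedom alone, or any library left out. It was 4 and 5 with DESeq2 (library totals and own size factors) and 2 with no block. DESeq2's own size factors moved the median of all bases to -0.125, and TMM that of all windows to -0.313, on the log2 scale. Base 2932 was called in 10 of the 16 alternatives that tested it, residual degrees of freedom aside (adjusted p from 0.00241 to 1), base 3548 in 14 of 16 (5.96e-07 to 0.727), base 3558 in 10 of 15 (0.00428 to 0.727) and window 3552 in 5 of 16 (0.000952 to 0.986).

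Signs turned only at bases that were not called. With DESeq2's own size factors the log2 fold change was -0.172 at base 2960 and -0.0491 at base 2967. With the HEK293 pairs alone it was 0.0618 at base 3473 and -0.266 at base 2967, with the HEK293T pairs alone 0.715 at base 2961, and with no block -0.0166 at base 2966. With each library left out it ran from -0.00238 to 0.0114 at base 2960, -0.598 to 0.359 at base 2958, -0.478 to 0.154 at base 2961, -0.806 to 0.460 at base 3473, -2.23 to 0.0936 at base 2965, -0.748 to 0.911 at base 2969 and -0.262 to 0.421 at base 2967. Depth limited the HEK293T libraries, whose 16 to 108 off-peak ends left most single bases untested.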
